A study of Mus musculus with 4 samples.

Results

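Prostaglandin genes were read in 4 RNA sequencing libraries of mouse hippocampus, 2 from C57BL/6 mice given sodium L-ascorbate and 2 from C57BL/6 mice given PBS, the saline vehicle. The 10 genes were chosen by name for their place in prostaglandin synthesis, transport and breakdown, with earlier results of these data known. All 10 were found by symbol among the 22173 genes of the files. They are the cyclooxygenases Ptgs1 and Ptgs2, the terminal synthases Ptgds, Hpgds, Ptges, Ptges2, Ptges3 and Ptgis, the transporter Slco2a1 and the dehydrogenase Hpgd. The series describes 30 days of treatment and its title speaks of middle-aged mice. Strain and tissue were the same in both groups, and sex, exact age, dose and route are not stated in the labels. The labels number the samples 1 and 2 within each group and do not say whether a number marks an animal, a pool or a preparation, so p-values measure only the spread between these samples, which may be technical.

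Prostaglandins are short-range lipid signals made on demand from arachidonic acid, which phospholipases and lipases free from membrane lipids. The cyclooxygenases Ptgs1 and Ptgs2 turn arachidonic acid into prostaglandin H2, and terminal synthases convert that common precursor into prostaglandin D2, prostaglandin E2 or prostacyclin, which act on G protein-coupled receptors. The transporter Slco2a1 takes prostaglandins into cells, where Hpgd oxidises them to inactive products. In brain, Ptgds is a secreted lipocalin known from the meninges, choroid plexus and oligodendrocytes and abundant in cerebrospinal fluid, while Ptgs2 is made by excitatory neurons and induced by synaptic activity.

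Values were deposited as FPKM, a fragment count scaled by transcript length and by the library total, so levels of different genes can be set side by side per length. FPKM summed to between 348133 and 391142 per sample. Numbers of reads are not given by the files, so no counting error can be attached to a single value. Hippocampal markers were present in every sample. The pyramidal neuron factor Neurod6 was 32.8 and 107 FPKM with ascorbate, against 26.9 and 92.4 FPKM with PBS. Samples with the same number resembled each other in regional markers. Prkcd, a kinase marking thalamic neurons, was 92.8 and 11.8 FPKM in ascorbate samples 1 and 2, against 83.1 and 8.30 FPKM in PBS samples 1 and 2. Both samples numbered 1 thus had the higher thalamic and the lower hippocampal marker levels, so each of the 10 genes is also given within each number.

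Promoter sequence is shown for 3 of the 9 genes of the set found in the RefSeq promoter table (GRCm38.p6), each from 250 bases before to 50 bases after the transcript start the table uses, in the direction of transcription. For Ptgds and Hpgds that start is not the outermost one, and the windows lie inside the gene spans given with their values. Ptgds and Hpgds are shown because they make the same product, with log2 differences of -2.14 and -0.12 between the groups, and Ptgs2 because its level followed the sample number. Capitals mark exact matches on either strand to 3 motifs. The AP-1 site, bound by Fos and Jun factors, was searched as TGACTCA. The core of the cyclic AMP response element (CRE), which CREB binds after synaptic activity, was searched as ACGTCA. The E-box, bound by basic helix-loop-helix factors, was searched as CACGTG, and it can share bases with the CRE core.
Ptgds (chr2:25469700-25469999, minus strand): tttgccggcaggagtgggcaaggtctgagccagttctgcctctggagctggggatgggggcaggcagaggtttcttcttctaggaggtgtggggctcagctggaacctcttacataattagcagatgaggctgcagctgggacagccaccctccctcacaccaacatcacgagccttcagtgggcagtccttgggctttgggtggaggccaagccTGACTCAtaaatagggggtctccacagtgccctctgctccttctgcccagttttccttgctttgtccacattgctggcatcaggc
Hpgds (chr6:65144681-65144980, minus strand): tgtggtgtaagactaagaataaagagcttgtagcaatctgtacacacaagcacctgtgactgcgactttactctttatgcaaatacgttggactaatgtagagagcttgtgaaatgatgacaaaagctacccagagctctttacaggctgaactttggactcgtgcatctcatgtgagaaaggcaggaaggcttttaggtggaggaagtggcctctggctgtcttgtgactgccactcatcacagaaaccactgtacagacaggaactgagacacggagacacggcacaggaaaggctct
Ptgs2 (chr1:150099781-150100080, plus strand): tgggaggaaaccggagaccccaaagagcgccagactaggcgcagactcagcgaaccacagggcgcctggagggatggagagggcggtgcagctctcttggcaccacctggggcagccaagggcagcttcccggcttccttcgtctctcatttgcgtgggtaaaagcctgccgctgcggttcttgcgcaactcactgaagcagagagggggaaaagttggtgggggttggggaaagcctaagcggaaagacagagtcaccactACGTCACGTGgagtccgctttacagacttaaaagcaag

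The Ptgds window held 1 AP-1 match, which 5.2% of all 32851 promoters of the table also hold. In the Ptgs2 window the CRE core and the E-box shared bases in 1 run, beginning at bases 13 and 17 after the start. That exact run was in 0.0974% of promoters, while the CRE core was in 7.51% and the E-box in 7.15%. The run was searched for after it was seen in Ptgs2, so its low share is no test. The Hpgds window held none of the 3 motifs. Among the other members Ptges2 held an E-box, and Hpgd and Slco2a1 held the letters TATAAA, as 13.6% of promoters do. Those letters began 29 bases before the start in Slco2a1 and at base 5 after it in Hpgd. Relative to the start the table uses, the Hpgd match is thus not at the place of a TATA box. Whether Hpgd starts elsewhere in these samples was not tested. These are matches of letters and not measured sites.

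Of the 10 genes, Ptgds, Ptgis and Hpgd had the log2 differences furthest below 0, with no overlap of the groups, whereas the cyclooxygenases and prostaglandin E synthases overlapped between the groups. Pooled over numbers, 9 of the 10 genes had a log2 difference below 0, as did 54.2% of the 13372 genes tested. Within number 1 it was below 0 for 9 of 10, within number 2 for 8 of 10, and within both for 7 of 10, against 32.5% of all genes tested. Without overlap, the ascorbate values were the lower ones for 5 of the 10, namely Ptgds, Ptgis, Hpgd, Slco2a1 and Hpgds, which held for 14.4% of all genes tested, and the higher ones for 0 of the 10, which held for 8.65%. Of these 5, Ptgis was tested only because its PBS samples lifted its mean over the filter of 1 FPKM. The median log2 difference of the 10 genes was -0.18, beside -0.018 over all genes tested. Because the 10 genes were chosen with earlier results of these data known, these counts are a description and no test.

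**Figure D1:**
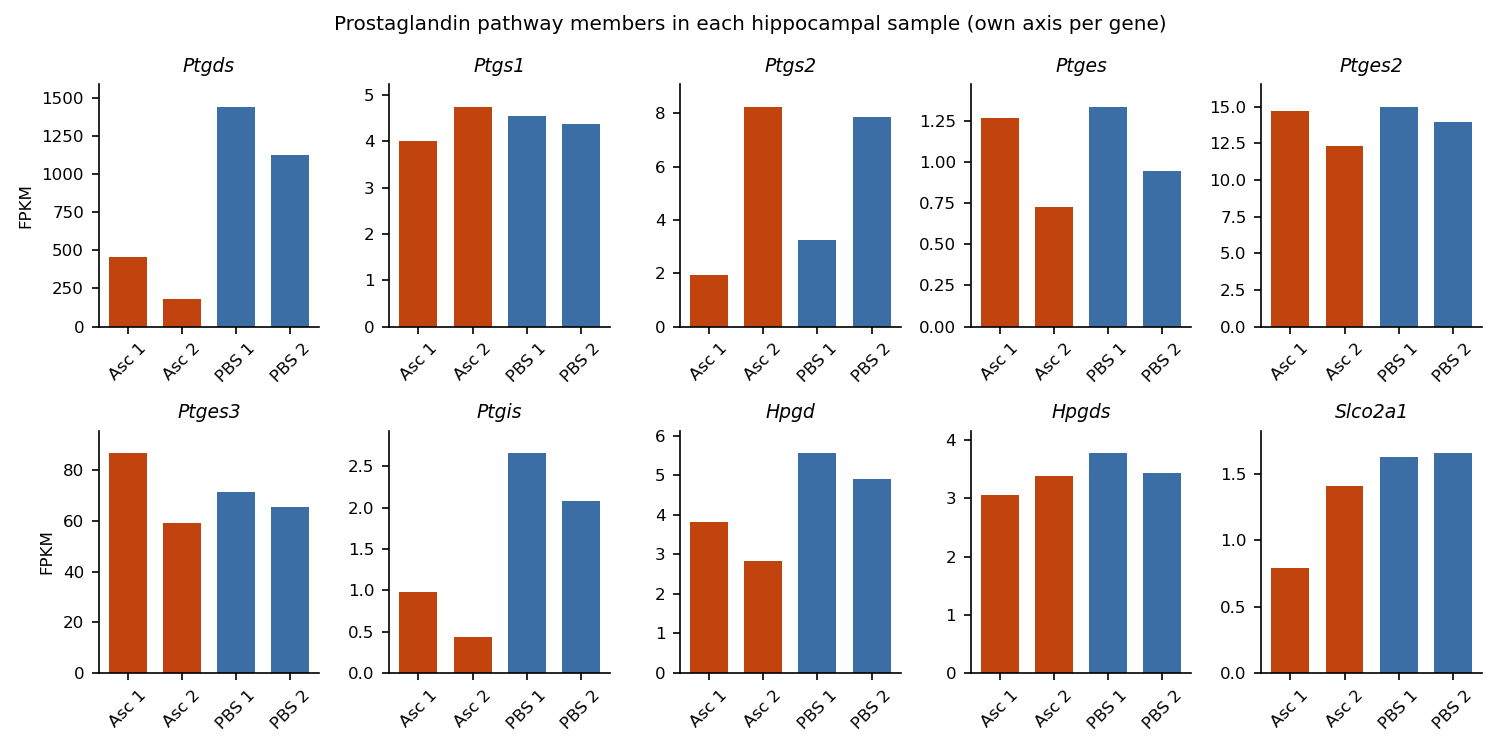
FPKM of each of the 10 genes (y axis, own scale from 0 in each panel) in ascorbate samples 1 and 2 and PBS samples 1 and 2 (x axis); each bar is 1 sample. Ptgds, Ptgis and Hpgd are lower in both ascorbate samples, and Ptgs2 is high in both samples numbered 2 (8.25 and 7.84 FPKM).

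With treatment as the only term, no single gene of the set passed the test. In limma-trend on log2(FPKM + 1), with Benjamini-Hochberg adjustment over all genes tested, 0 of the 10 and 0 of 13372 genes (0%) had an adjusted p under 0.05 in either direction. The same count of 0 was found by limma without trend and with robust variances. Quantile normalization and a block for the replicate number gave other counts, which are set out with the alternatives at the end. At an unadjusted p under 0.05 stood 3 of the 10, all lower with ascorbate, where 2.72% of all genes tested did so, and 0 of the 10 were higher, where 0.0972% did so. Of these 3, Ptgis passed the filter on low values only through its PBS samples, so it could hardly appear as higher. With robust variances in limma 2 of the 10 had an unadjusted p under 0.05. The unadjusted counts rest on few samples: the 377 genes of both directions became 182 without PBS sample 1 and 616 without ascorbate sample 1, and the 3 members became 1 without PBS sample 1, 2 without PBS sample 2 and 2 without ascorbate sample 2. An exact two-sided permutation of 2 against 2 samples cannot give a p below 0.333.

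Prostaglandin D synthase showed the largest difference of the set. Ptgds (gene ID 19215, chromosome 2, 25466709 to 25470110, GRCm38), the lipocalin-type enzyme, was 456 and 182 FPKM with ascorbate, against 1443 and 1124 FPKM with PBS. The ascorbate samples lay well under the PBS samples, and in each group sample 2 was the lower one. The mean was 319 ± 194 FPKM with ascorbate and 1284 ± 226 FPKM with PBS (SD, n = 2 each), so it was 4.02-fold lower with ascorbate. The log2 difference was -2.14 (SE 0.51, 95% interval -3.52 to -0.75) and its adjusted p was 0.920 in limma-trend. Within number 1 Ptgds was 3.16-fold lower with ascorbate and within number 2 it was 6.17-fold lower. With ascorbate sample 2 left out the log2 difference was -1.48, and with ascorbate sample 1 left out it was -2.80.

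Ptgds carried most of the FPKM of the set. It made up 79.5% and 66.2% of the summed FPKM of the 10 genes with ascorbate, against 93.0% and 91.5% with PBS. Ranked by FPKM among all genes with values, it stood at place 67 and 250 with ascorbate, against place 12 and 16 with PBS. The other 9 genes together summed to 117 and 93.2 FPKM with ascorbate, against 109 and 105 FPKM with PBS, so their total overlapped between the groups. Most of that total was Ptges3, at 86.8 and 59.1 FPKM with ascorbate, against 71.5 and 65.6 FPKM with PBS. The total thus says little about the scarcer genes of the set.

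The second enzyme that makes prostaglandin D2, Hpgds (gene ID 54486, chromosome 6, 65117293 to 65144981), is a glutathione-dependent synthase known from microglia, macrophages and mast cells. It was 3.06 and 3.39 FPKM with ascorbate, against 3.78 and 3.43 FPKM with PBS. The groups did not overlap, but the highest ascorbate and the lowest PBS sample were 3.39 and 3.43 FPKM. The log2 difference was -0.12 (SE 0.16, 95% interval -0.56 to 0.32), with -0.24 within number 1 and -0.013 within number 2, and limma-trend gave it an adjusted p of 1.0. Within a sample, the FPKM of Ptgds was 149 and 53.8 times that of Hpgds with ascorbate, against 382 and 328 times with PBS.

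Microglial markers, the background for Hpgds and Ptgs1, were near the same level in all samples. The 10 markers summed to 164 and 166 FPKM with ascorbate, against 178 and 164 FPKM with PBS, with Csf1r and P2ry12 among the most abundant, and their median log2 difference was -0.032. Of the mast cell markers Kit, which neurons also express, was 3.48 and 15.5 FPKM with ascorbate, against 4.88 and 15.9 FPKM with PBS. The mast cell receptor chain Fcer1a was at 0 FPKM in every sample, and Tpsb2 was 0.06 and 0 FPKM with ascorbate, against 0.39 and 0.25 FPKM with PBS.

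Both cyclooxygenases were present at a few FPKM and neither separated the groups. Ptgs1 (gene ID 19224, chromosome 2, 36216742 to 36258593), the constitutive enzyme, was 4.00 and 4.75 FPKM with ascorbate, against 4.55 and 4.37 FPKM with PBS. The PBS samples lay between the ascorbate samples. Its log2 difference was -0.026 (SE 0.16, 95% interval -0.46 to 0.41), with -0.15 within number 1 and 0.099 within number 2, and its sign turned under TPM (0.023), median-of-ratios (0.018) and quantile scaling (0.065).

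Ptgs2 (gene ID 19225, chromosome 1, 150100031 to 150108234), the inducible cyclooxygenase, was 1.94 and 8.25 FPKM in ascorbate samples 1 and 2, against 3.24 and 7.84 FPKM in PBS samples 1 and 2. Both samples numbered 2 were high and both numbered 1 low, whatever the treatment. The log2 difference between the groups was -0.23 (SE 0.68, 95% interval -2.07 to 1.61), the widest interval of the set. Within number 1 the log2 difference was -0.53 and within number 2 it was 0.065. Without ascorbate sample 1 the log2 difference was 0.60, and without ascorbate sample 2 it was -1.06. Per length, Ptgs2 was 0.485 and 1.74 times Ptgs1 with ascorbate, against 0.712 and 1.79 times with PBS, so the inducible form was the lower of the pair in number 1 and the higher in number 2.

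Other activity-induced genes and regional markers were read beside Ptgs2. Of 11 tested activity-induced genes, 0 passed the test in limma-trend. When pooled, 9 were higher and 2 lower with ascorbate, where 54.2% of all genes tested were lower. The pooled median log2 difference was 0.25, but it was 0.42 within number 1 and -0.028 within number 2. Their sum was 105 and 132 FPKM with ascorbate, against 64.3 and 136 FPKM with PBS, so PBS sample 1 was the low one. Arc, a synaptic plasticity protein, was 23.2 and 33.2 FPKM with ascorbate, against 10.0 and 30.7 FPKM with PBS, and Egr1, Junb and Nr4a1 were likewise lowest in PBS sample 1. In ascorbate sample 1, where Ptgs2 was lowest, Arc was not. The hippocampal neuron markers summed to 166 and 373 FPKM with ascorbate, against 134 and 320 FPKM with PBS, and the thalamic markers (the most abundant being Prkcd, Zic1 and Tcf7l2) to 242 and 28.3 FPKM with ascorbate, against 210 and 28.35 FPKM with PBS. The hippocampal markers Neurod6, Cabp7 and C1ql2 were all higher in the samples numbered 2 of their group. The part of tissue makeup in the Ptgs2 values was not tested.

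**Figure D2:**
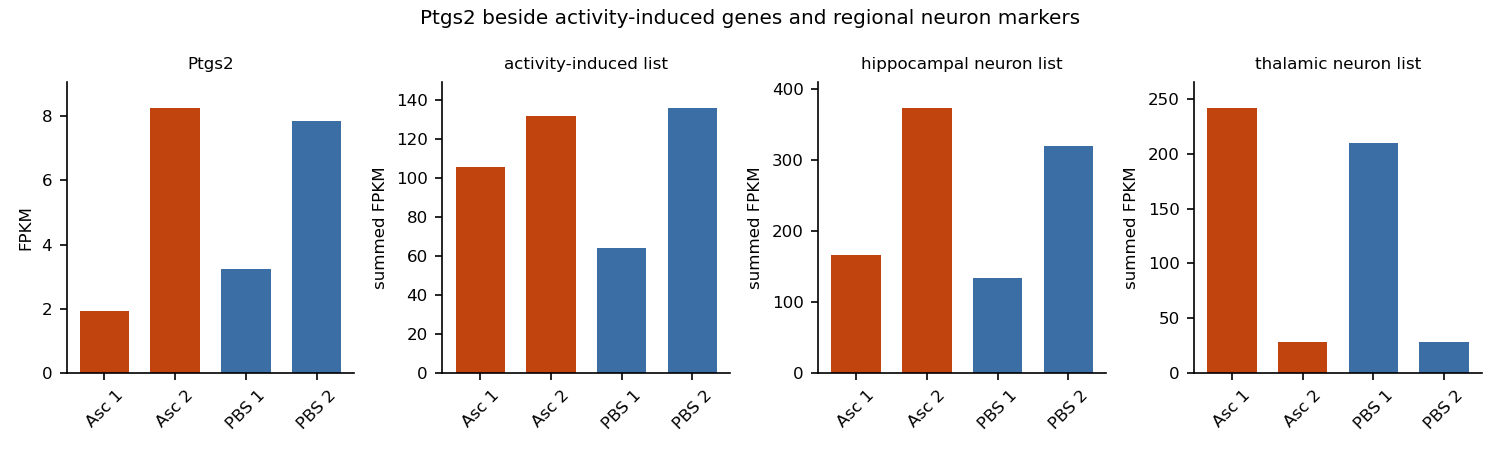
Ptgs2 in FPKM (first panel) and the summed FPKM of activity-induced, hippocampal neuron and thalamic neuron genes (other panels), y axes from 0, in ascorbate samples 1 and 2 and PBS samples 1 and 2; each bar is 1 sample. Ptgs2 and the hippocampal neuron sum are higher in the samples numbered 2, and the thalamic sum is higher in those numbered 1.

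The prostaglandin E synthases spanned levels from 0.73 to 86.8 FPKM and overlapped between the groups. Ptges3 (gene ID 56351, chromosome 10, 128058982 to 128077254), the cytosolic form, which also serves as the Hsp90 co-chaperone p23, was 86.8 and 59.1 FPKM with ascorbate, against 71.5 and 65.6 FPKM with PBS. Its highest and its lowest value were both ascorbate samples, and its log2 difference was 0.064 (SE 0.24, 95% interval -0.58 to 0.70), with 0.28 within number 1 and -0.15 within number 2. The processed copy Ptges3-ps shares 480 bases at 100% identity with a Ptges3 transcript and was listed at 3.76 and 8.17 FPKM with ascorbate, against 4.27 and 7.34 FPKM with PBS, so the value of Ptges3 is uncertain by reads the authors' counting may have split between them.

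Ptges2 (gene ID 96979, chromosome 2, 32395890 to 32402740), a membrane-associated form, was 14.7 and 12.3 FPKM with ascorbate, against 15.0 and 14.0 FPKM with PBS, a log2 difference of -0.098 (SE 0.15, 95% interval -0.51 to 0.32), with -0.031 within number 1 and -0.16 within number 2. Ptges (gene ID 64292, chromosome 2, 30889471 to 30931020), the inducible microsomal form that works with Ptgs2 in inflammation and fever, was 1.27 and 0.73 FPKM with ascorbate, against 1.34 and 0.95 FPKM with PBS. Unlike Ptgs2, Ptges was higher in the samples numbered 1 of both groups. The log2 difference of Ptges was -0.11 (SE 0.26, 95% interval -0.80 to 0.58), with -0.044 within number 1 and -0.17 within number 2, and it turned to 0.13 under quantile normalization. All 3 E synthases had an adjusted p of 1.0 by limma-trend, and the intervals do not show that their levels were equal in the groups.

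Prostacyclin synthase had the second largest difference of the set. Ptgis (gene ID 19223, chromosome 2, 167203194 to 167252150), known from vascular and fibroblast-like cells, was 0.98 and 0.44 FPKM with ascorbate, against 2.66 and 2.08 FPKM with PBS. The groups did not overlap, and ascorbate sample 2 was the lowest. The mean was 0.710 ± 0.382 FPKM with ascorbate and 2.37 ± 0.410 FPKM with PBS (SD, n = 2 each), so it was 3.34-fold lower with ascorbate. The log2 difference on the log2(FPKM + 1) scale, which understates the change of so low a gene, was -0.99 (SE 0.26, 95% interval -1.69 to -0.29), and limma-trend gave it an adjusted p of 1.0. It was -0.89 within number 1 and -1.10 within number 2. Ptgis was the 1 gene of the set whose ascorbate mean was under 1 FPKM, so it passed the filter on low values through its PBS samples.

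The enzyme of prostaglandin breakdown and the importer that feeds it were lower as well, by less. Hpgd (gene ID 15446, chromosome 8, 56294552 to 56321046) was 3.82 and 2.82 FPKM with ascorbate, against 5.56 and 4.90 FPKM with PBS. The groups did not overlap, and the mean was 1.58-fold lower with ascorbate. The log2 difference was -0.54 (SE 0.19, 95% interval -1.06 to -0.014), and limma-trend gave it an adjusted p of 1.0, and it was -0.44 within number 1 and -0.63 within number 2.

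Slco2a1 (gene ID 24059, chromosome 9, 103007061 to 103096002), the importer, which brain endothelial cells express, was 0.79 and 1.41 FPKM with ascorbate, against 1.63 and 1.66 FPKM with PBS. The PBS samples were nearly equal, and ascorbate sample 1 stood apart below the rest. The log2 difference was -0.35 (SE 0.24, 95% interval -0.99 to 0.30), and without ascorbate sample 1 it was -0.13. It was -0.56 within number 1 and -0.14 within number 2.

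**Figure D3:**
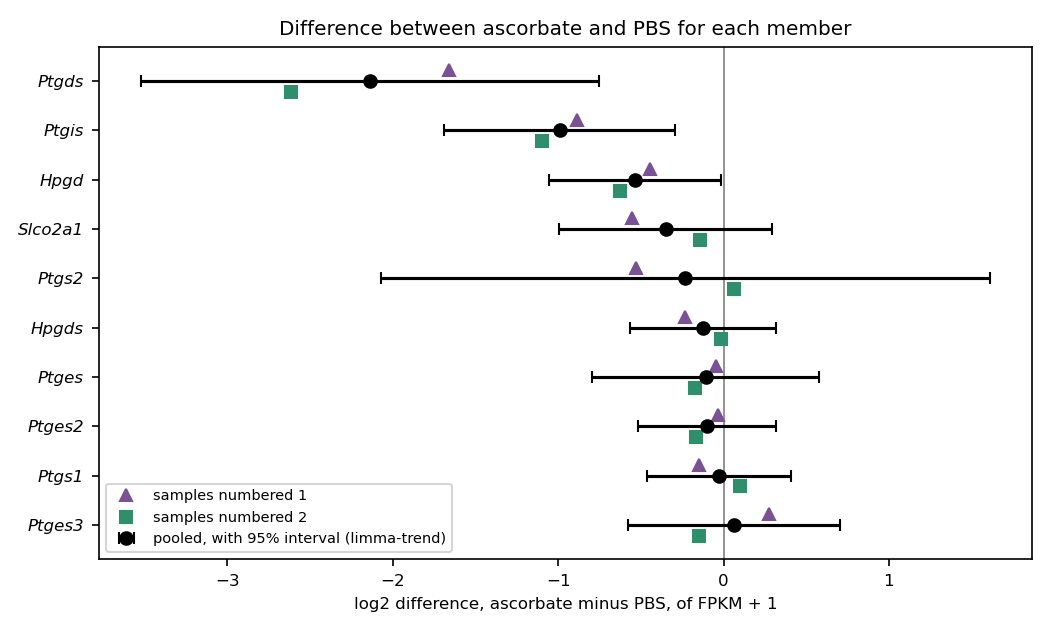
Log2 difference, ascorbate minus PBS, of FPKM + 1 (x axis) for each of the 10 genes (y axis); black points and bars are the pooled estimate with its 95% interval from limma-trend, triangles the samples numbered 1 and squares those numbered 2. The intervals of Ptgds (-3.52 to -0.75), Ptgis (-1.69 to -0.29) and Hpgd (-1.06 to -0.014) lie below 0 before adjustment over all genes, and that of Ptgs2 is the widest.

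Markers of several cell types known to express these genes were lower in the same ascorbate samples. In bulk tissue, fewer cells of a type and less RNA per cell cannot be told apart. All 15 choroid plexus markers were lower with ascorbate, with no overlap of the groups. Their summed FPKM, led by Ttr, Enpp2 and Kl, was 225 and 47.7 with ascorbate, against 9697 and 8959 with PBS, and Otx2 and Tmem72 were at 0 FPKM in ascorbate sample 2. Ttr made up most of the PBS sums, at 88.15 and 1.03 FPKM with ascorbate, against 8152 and 7257 FPKM with PBS. Over the 15 choroid plexus genes the log2 differences ran from -9.16 to -2.57, with a median of -3.66. All 14 tested meningeal fibroblast markers were also below PBS in both ascorbate samples. The meningeal sum, led by Igfbp2, Igf2 and Dcn, was 68.2 and 48.9 FPKM with ascorbate, against 315 and 318 FPKM with PBS. Igfbp2 and Igf2 made up most of the PBS sums, and their means were 6.98-fold and 12.9-fold lower with ascorbate. The mean of Dcn was 2.70-fold lower. Over the 14 tested genes the log2 differences ran from -3.63 to -0.56, with a median of -1.49, so the sum does not stand for every gene of the list.

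Vascular marker sums were lower with ascorbate, with exceptions among the genes. The endothelial sum, led by Slco1c1, Itm2a and Ly6c1, was 56.9 and 60.3 FPKM with ascorbate, against 104 and 109 FPKM with PBS, with a median log2 difference of -0.29 over 11 tested genes, of which 3 had an unadjusted p under 0.05. Slco1c1, a carrier of thyroid hormone, was the most abundant of the list in both PBS samples but in neither ascorbate sample. It was 9.34 and 13.02 FPKM with ascorbate, against 32.5 and 38.9 FPKM with PBS. Its log2 difference of -1.60 was the furthest below 0 of the tested endothelial genes, and the nearest to 0 was -0.12. The mural sum, led by Vtn, Rgs5 and Myl9, was 44.3 and 46.2 FPKM with ascorbate, against 82.7 and 101 FPKM with PBS. Of 8 tested mural genes 7 were lower and 1 higher, 4 had an unadjusted p under 0.05, and the median log2 difference was -0.66. Vtn made up much of that sum, at 21.3 and 19.5 FPKM with ascorbate, against 48.2 and 44.0 FPKM with PBS. Mural genes that went the other way, named after their values were seen, were Abcc9, with a log2 difference of 0.021, and Kcnj8, under the filter, at 1.00 and 1.08 FPKM with ascorbate, against 0.82 and 0.81 FPKM with PBS. Border-associated macrophage markers, led by F13a1, Pf4 and Mrc1, summed to 3.76 and 2.70 FPKM with ascorbate, against 7.12 and 4.58 FPKM with PBS, and 1 of the 6 was tested. Pf4 was higher with ascorbate within each number, at 1.21 and 0.77 FPKM with ascorbate, against 1.12 and 0.64 FPKM with PBS. In these lists 0 genes passed the test in limma-trend.

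Oligodendrocyte markers, the third known source of Ptgds, followed the number. Their sum, with Mbp and Mobp among the most abundant, was 3894 and 1701 FPKM in ascorbate samples 1 and 2, against 4013 and 2130 FPKM in PBS samples 1 and 2. All 12 of these markers were lower with ascorbate when pooled, with a median log2 difference of -0.26, and the groups overlapped for all 12. The median was -0.068 within number 1 and -0.51 within number 2. Ependymal markers, led by Rarres2, Ccdc153 and Rsph1, summed to 101 and 11.0 FPKM with ascorbate, against 93.2 and 52.3 FPKM with PBS, and astrocyte markers, led by Aldoc, Slc1a2 and Gfap, to 1237 and 1155 FPKM with ascorbate, against 1242 and 1098 FPKM with PBS. The part of these cell types in the differences of Ptgds, Ptgis, Hpgd and Slco2a1 was not tested.

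**Figure D4:**
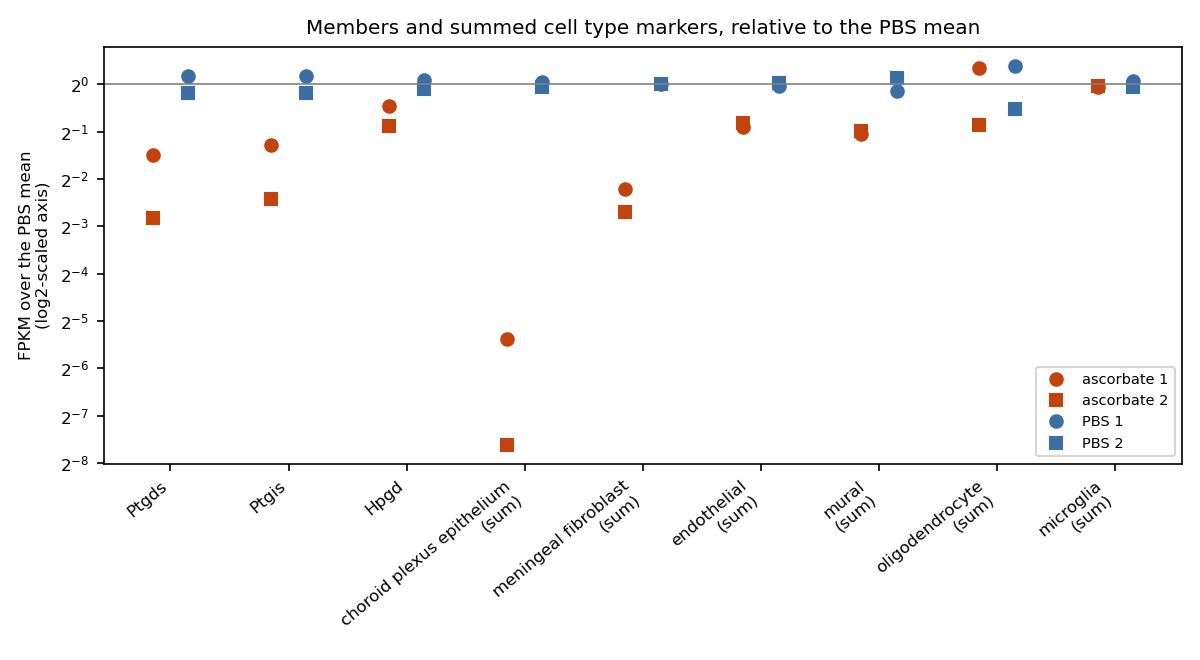
FPKM of Ptgds, Ptgis and Hpgd and the summed FPKM of 6 marker lists (x axis), each divided by its own PBS mean (y axis, log scale); red symbols are ascorbate and blue symbols PBS, circles sample 1 and squares sample 2. The ascorbate samples are below the PBS samples for the 3 genes and for the choroid plexus, meningeal, endothelial and mural sums, and not for oligodendrocyte and microglial sums.

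Steps before and beside the 10 genes were described from lists of pathway genes. Of 11 genes that release arachidonic acid or its precursors, 10 were tested and 0 passed, with 7 higher and 3 lower and a median log2 difference of 0.12. The lipases Mgll, Dagla and Faah were more abundant in the samples numbered 2, and Mgll, which frees arachidonic acid from an endocannabinoid in brain, was 33.1 and 53.5 FPKM with ascorbate, against 27.1 and 42.9 FPKM with PBS. Daglb was 9.81 and 8.37 FPKM with ascorbate, against 7.74 and 8.15 FPKM with PBS. Pla2g5, a secreted phospholipase named here after its values were seen, was 0.41 and 0.29 FPKM with ascorbate, against 6.27 and 3.72 FPKM with PBS, a log2 difference of -2.12 for which limma-trend gave an adjusted p of 0.267. Like Ptgis, it passed the filter on low values through its PBS samples.

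A list of 8 further prostanoid genes held enzymes and the exporter Abcc4. All 8 were tested, 0 passed, and 6 were lower and 2 higher, with a median log2 difference of -0.083. The most abundant, Prxl2b, a reductase that makes prostaglandin F2alpha, was 88.5 and 71.9 FPKM with ascorbate, against 93.0 and 82.6 FPKM with PBS. The reductases Cbr1, Akr1b3 and Ptgr2 overlapped between the groups, with log2 differences of 0.017, -0.033 and -0.13. The exporter Abcc4 and the reductase Ptgr1, both named after their values were seen, did not overlap between the groups. Abcc4 was 2.19 and 2.85 FPKM with ascorbate, against 3.70 and 3.88 FPKM with PBS, and Ptgr1 was 2.22 and 2.05 FPKM with ascorbate, against 3.31 and 3.27 FPKM with PBS.

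Receptors were scarce in every sample. The 9 prostanoid receptors summed to 3.44 and 2.95 FPKM with ascorbate, against 4.12 and 3.60 FPKM with PBS, and 1 of them, the prostaglandin E2 receptor Ptger1, was tested. Ptger1 was 1.62 and 1.73 FPKM with ascorbate, against 2.03 and 1.74 FPKM with PBS, a log2 difference of -0.11 and limma-trend gave it an adjusted p of 1.0. Ptger4, Ptger3 and the thromboxane receptor Tbxa2r were under 1 FPKM in every sample. Ptgdr and Ptgdr2, receptors for the product of Ptgds, were named after their values were seen. Ptgdr was 0.16 and 0.07 FPKM with ascorbate, against 0.31 and 0.36 FPKM with PBS. Ptgdr2 was 0 and 0 FPKM with ascorbate, against 0 and 0.04 FPKM with PBS.

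The lipoxygenase branch, which turns arachidonic acid into leukotrienes, held 5 tested genes of 12, of which 0 passed, with a median log2 difference of -0.042. Leukotriene C4 synthase, Ltc4s, was 2.50 and 2.98 FPKM with ascorbate, against 11.8 and 8.85 FPKM with PBS, a log2 difference of -1.59 for which limma-trend gave an adjusted p of 0.246. Lta4h, Alox5ap and Alox8 overlapped between the groups. Lta4h, the hydrolase that makes leukotriene B4, was 19.0 and 13.8 FPKM with ascorbate, against 17.5 and 16.0 FPKM with PBS.

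**Figure D5:**
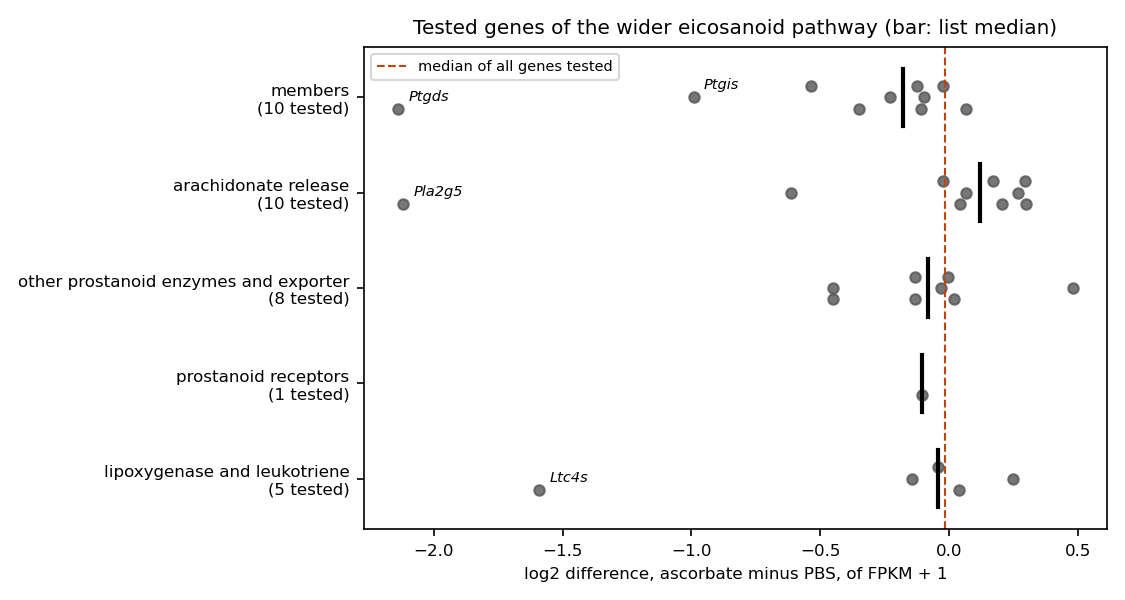
Log2 difference, ascorbate minus PBS, of FPKM + 1 (x axis) for each tested gene (points) of the 10 members and 4 pathway lists (y axis); black bars are list medians and the dashed line is the median of all genes tested (-0.018). Most points lie close to 0, and Ptgds, Ptgis, Pla2g5 and Ltc4s lie furthest to the left.

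Genes with the most similar pattern were found by the Euclidean distance between log2(FPKM + 1) values, each centred on the gene's own mean, over the 4 samples. The 5 nearest to Ptgds were Cd74, Bmp6, Gpx8, Car14 and Steap2, at distances from 0.251 to 0.371. Car14, a carbonic anhydrase, was 16.1 and 4.09 FPKM with ascorbate, against 43.3 and 32.6 FPKM with PBS, and Cd74, the class II invariant chain, was 2.37 and 0.36 FPKM with ascorbate, against 9.36 and 5.75 FPKM with PBS. Among the nearest to Ptgis were Pdgfd, Vcam1, Clic1 and Nqo1, at distances from 0.0591 to 0.114. Vcam1, an adhesion molecule of activated endothelium, was 10.6 and 7.04 FPKM with ascorbate, against 20.2 and 16.1 FPKM with PBS. Each of these named genes had lower FPKM in sample 2 than in sample 1 of each group, as had Ptgds and Ptgis. They were picked for nearness to Ptgds or Ptgis over the same samples, so this likeness is no separate result. With 4 samples many genes can share a pattern, so the distances are a description of these libraries.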

How the data were processed

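RNA of mouse hippocampus was selected on oligo(dT) beads and reverse transcribed from random hexamers, per the labels' protocols. The authors deposited FPKM, 1 library a file and to 2 decimals, per the file headers. The tools named, per the submitters' processing notes and without version, role or order, are RSEM, HISAT2, DESeq2 and Bowtie2, and the build is GRCm38, and the annotation release and strand setting are not given in the sources used here. FPKM is relative to the library total, so an abundant transcript lowers all others in its library. FPKM are not counts, so no count model was fitted. The most frequent FPKM above 0 among 224 olfactory receptor genes was 0.06 or 0.07 in each sample, so read totals appear alike, though they are not known.

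The 4 libraries were merged on gene ID. Values were present for 19388 of 22173 genes and empty for 2785. A filter on the mean over samples (1 FPKM or more) kept 13372 genes. Their log2(FPKM + 1) values were fitted by treatment in limma-trend (limma 3.58.1, R 4.3.3), which had 2 residual and 2.33 prior degrees of freedom. Adjustment of p-values was by the Benjamini-Hochberg method over all genes tested at a threshold of 0.05, and intervals are 95%. Members are read off this fit. Positions and promoters come from RefSeq (GRCm38.p6), and promoter motifs were chosen after the sequences were seen. No member overlaps another gene of the files, and BLAST+ 2.17.0 against GENCODE M21 transcripts (95% identity over at least 200 bases) found a near-identical gene for Ptges3 only.

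The members and lists were chosen with earlier results of these data known. Named genes are the 10 members, the 4 most abundant genes of each pathway list, the 3 most abundant of each marker list with any at 0 in every sample, and the 5 nearest patterns to Ptgds and Ptgis. A few genes that this rule names are not reported here. Others are said to be named after their values were seen. Alternatives tried were other pseudocounts (0.1 and 0.5), another filter (none, or 5 FPKM), other scalings (TPM, median-of-ratios, quantile), other variance models in limma (no trend, robust), a block for the replicate number, and leaving out 1 sample at a time.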

Additional observations from a re-analysis of the deposited data

How the results depend on the processing

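The log2 differences of Ptgds, Ptgis, Hpgd, Hpgds and Slco2a1 stayed below 0 under every alternative run, from -2.80 to -1.48 for Ptgds, from -1.68 to -0.76 for Ptgis and from -0.70 to -0.37 for Hpgd. Other filters, other variance models and the replicate block leave these differences unchanged by construction. Only the pseudocounts, scalings and left-out samples could move them. With a minimum of 5 FPKM only Ptgds, Ptgs2, Ptges2 and Ptges3 remained among the genes tested. No gene passed the threshold (0) in any fit except quantile normalization (1, not a member) and the replicate block. With the replicate number as a block, 485 genes passed, 453 of them lower, and 2 members, Ptgds (adjusted p = 1.09e-05) and Ptgis (adjusted p = 0.00729). That limma-trend fit has 1 residual degree of freedom and leans on the spread shared over genes, and the labels give the numbers no meaning. Deviations of same-numbered samples from their group means correlated at 0.770 over genes, which 2 pairs cannot establish as a pairing. Signs turned for 5 members, Ptgs1, Ptgs2, Ptges, Ptges2 and Ptges3, whose pooled log2 differences ran from -0.23 to 0.064. Ptgs1 was 0.023 under TPM, 0.018 under median-of-ratios and 0.065 under quantile scaling, and Ptges was 0.13 under quantile scaling. With each sample left out in turn, log2 differences ran from -0.13 to 0.075 for Ptgs1, from -1.06 to 0.60 for Ptgs2, from -0.30 to 0.088 for Ptges, from -0.21 to 0.018 for Ptges2 and from -0.21 to 0.34 for Ptges3; a group then has 1 sample, assumed to vary like the other group. The cause of these turns was not tested.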
